A study of Mus musculus with 6 samples.

Results

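Adipogenic regulators and genes that take up, store and release fatty acids were followed in mouse cardiac fibroblasts in which Tet3 had been targeted. The 10 genes are a list of names grouped by role, drawn up with earlier results of these data known: the transcription factors Pparg, Cebpa, Cebpb and Cebpd, and the lipid handling genes Lpl, Plin2, Cd36, Angptl4, Fabp5 and Pnpla2. All 10 were among the 22063 genes of the count table, and all 10 were among the 12862 genes with enough reads to be tested. Primary cardiac fibroblasts from Tet3 f/f mice on a C57BL/6J background, whose age is not given in the labels, were transduced with an adenovirus coding for GFP (GFP group, labelled Control, 3 libraries) or for Cre recombinase (CRE group, labelled Tet3 knockout, 3 libraries). Per the study's methods, both viruses were driven by the CMV promoter and both carried EGFP, and every culture in either group had been exposed to TGF-β, the cytokine that turns fibroblasts into matrix-producing myofibroblasts. No library without TGF-β or without a virus was analysed here, so the comparison speaks of Cre against GFP within TGF-β-treated cells. The labels do not say whether the libraries of a group came from separate mice or cultures, and p-values measure only the spread between these libraries.

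Adipogenesis is driven by a relay of transcription factors. C/EBPβ and C/EBPδ are induced early, and they switch on PPARγ and C/EBPα, which then maintain each other and the genes of the fat cell. Fatty acids reach a cell when lipoprotein lipase (LPL) cleaves them from circulating triglyceride, a step that ANGPTL4 blocks. They enter with the help of CD36, are carried inside by fatty acid binding proteins such as FABP5, are stored in lipid droplets coated by perilipins such as PLIN2, and are released again by the triglyceride lipase PNPLA2, also known as ATGL. In the heart these genes are best known from muscle cells, fat cells and capillaries, and fibroblasts express many of them at lower levels. TET3 is a dioxygenase that oxidises 5-methylcytosine in DNA.

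Libraries held between 17002126 and 20343590 counted reads. Tet3 itself, the targeted gene, was at 64.9, 54.4 and 52.0 CPM, a read count scaled to the library's effective size, in the GFP libraries and at 34.5, 35.9 and 33.6 CPM in the CRE libraries, a drop to 60.8% of the GFP mean (log2 fold change -0.72, SE 0.08, adjusted p = 5.36e-05). Reads of a floxed gene come from all its exons, so a count over the whole gene does not give the share of cells that were recombined. Differences are log2 fold changes of CRE over GFP from edgeR's quasi-likelihood test, and a gene is said to have risen or fallen when its p was under 0.05 after Benjamini-Hochberg adjustment across the 12862 tested genes. At that threshold 25.5% of all tested genes were higher and 25.7% were lower in CRE, or 51.2% in either direction, and the CPM values of the groups did not overlap for 59.6%. With no scaling but library size, log2 fold changes shifted up by 0.16 at the median, and the same test called 5529 genes higher and 2083 lower (72.6% higher) against 3277 and 3306 (49.8% higher).

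Against that background 8 of the 10 genes passed the threshold, 3 higher (25.5% of all tested genes were) and 5 lower (25.7% were). Angptl4, Plin2 and Pnpla2 were higher in CRE, while Pparg, Cebpb, Cebpd, Cd36 and Fabp5 were lower, and Cebpa and Lpl did not pass. The groups did not overlap for 9 of the 10, the exception being Cebpa, beside 59.6% of all tested genes. The median log2 fold change was -0.42 over the 10 genes and 0.01 over all tested genes. The 3 higher and 5 lower genes kept their direction with every scaling tried, and library size alone added Cebpa to the higher genes.

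**Figure D1:**
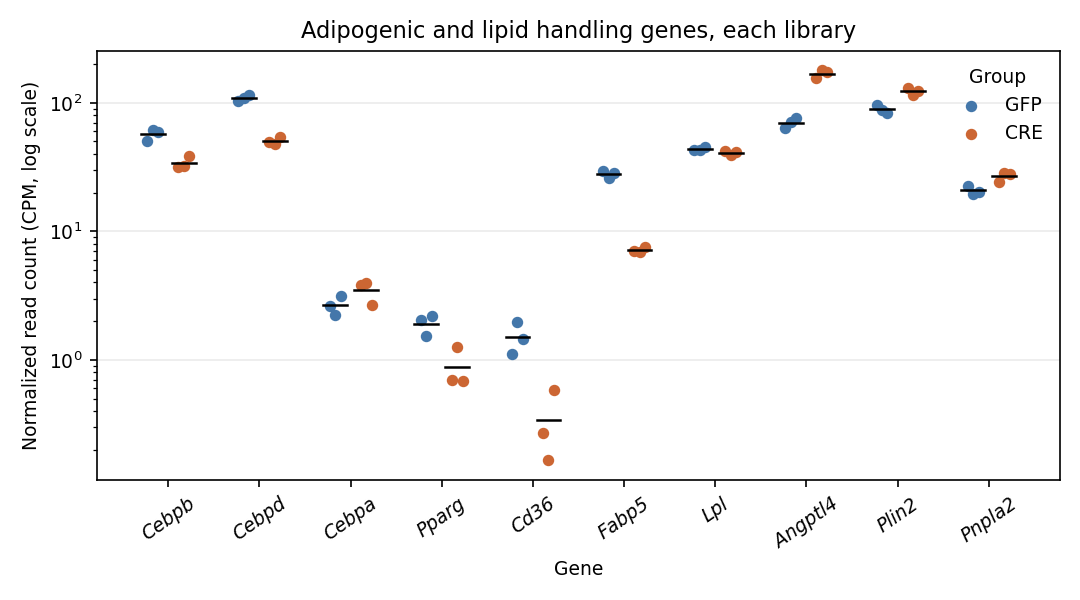
Level of each of the 10 genes in CPM (log axis) in the 3 GFP and the 3 CRE libraries; points are libraries and bars are group means. The groups are apart for every gene but Cebpa, with the widest gaps for Cd36, Fabp5 and Angptl4 and the narrowest for Lpl.

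**Figure D2:**
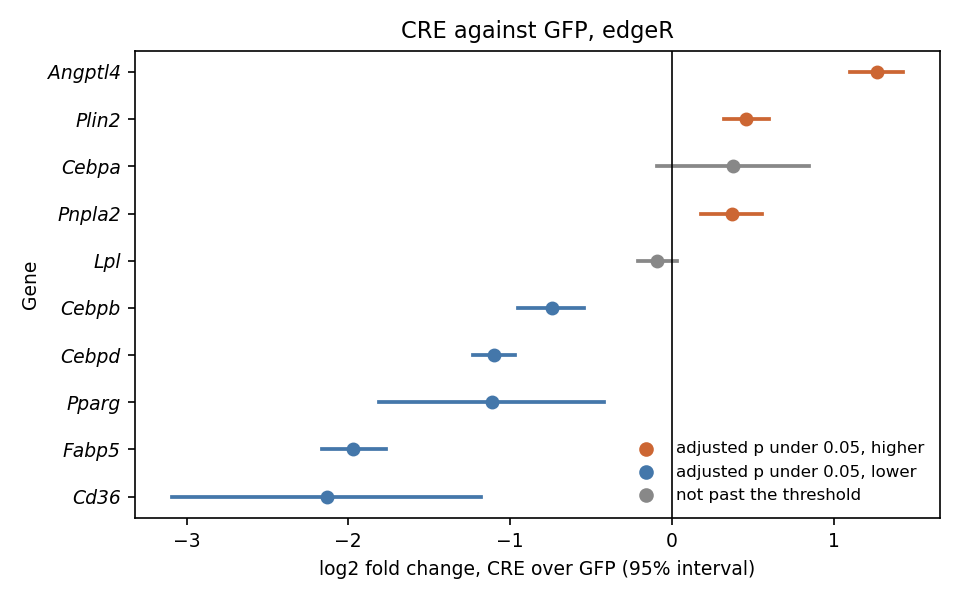
Log2 fold change of CRE over GFP for each gene with its 95% confidence interval, from edgeR's quasi-likelihood test on 3 libraries per group; colour gives the direction of the genes that passed the threshold. Intervals of Cebpa and Lpl cross 0, and those of Pparg and Cd36, the genes with the fewest reads, are wide.

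The C/EBP factors that act early in adipogenesis were abundant and fell. Cebpd (chr16:15887286-15891031, plus strand, GRCm38) was at 103, 108 and 115 CPM in GFP and at 49.8, 48.1 and 54.2 CPM in CRE. Every CRE library was below every GFP library, and the mean went from 109 ± 5.75 to 50.7 ± 3.15 CPM (SD, n = 3), 46.7% of GFP (log2 fold change -1.10, SE 0.06, adjusted p = 5.46e-07). Cebpb (chr2:167688915-167690418, plus strand) was at 50.1, 61.7 and 59.1 CPM in GFP and at 31.8, 32.2 and 38.2 CPM in CRE. Its groups were apart as well, with means of 57.0 ± 6.12 and 34.1 ± 3.60 CPM, 59.8% of GFP (-0.74, SE 0.09, adjusted p = 9.71e-05). Both genes have a neighbour on the opposite strand. Of the exon bases of Cebpb 20.7% are shared with Tmem189, and of those of Cebpd 15% are shared with Spidr, and since the sources do not state whether counting used the strand, reads from these stretches cannot be assigned.

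Cebpa (chr7:35119293-35121928, plus strand), which acts later and in differentiated fat cells, did not change detectably. Its levels were low, at 2.61, 2.25 and 3.12 CPM in GFP and 3.81, 3.93 and 2.69 CPM in CRE. The CRE 3 library lay within the range of the GFP libraries, so the groups overlapped, and the estimate of 0.38 had an interval from -0.09 to 0.85 (adjusted p = 0.161). With library size alone the estimate was 0.54 and passed the threshold (adjusted p = 0.0484). Between 40 and 71 reads were counted for Cebpa in each library. In FPKM, which divides by transcript length, Cebpa made up 1.53 ± 0.25% of the summed level of Cebpa, Cebpb and Cebpd in GFP and 3.60 ± 0.952% in CRE. The share was higher in each CRE library, at 4.05, 4.25 and 2.51%, than in any GFP library, where it reached at most 1.73%.

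Pparg (chr6:115360951-115490399, plus strand), the nuclear receptor at the centre of the fat cell programme, was near the lower end of what was measured and fell. It was at 2.05, 1.52 and 2.18 CPM in GFP and at 0.698, 1.27 and 0.686 CPM in CRE, which rests on 33, 27 and 42 reads against 13, 23 and 13. All CRE libraries were below all GFP libraries, with the CRE 2 library closest to them. The mean was 1.92 ± 0.35 CPM in GFP and 0.886 ± 0.336 CPM in CRE, 46.2% of GFP (-1.11, SE 0.31, interval -1.81 to -0.42, adjusted p = 0.0125). The call was lost without GFP replicate 3 (-1.01, adjusted p = 0.0535), without CRE replicate 1 (-0.97, adjusted p = 0.0509) and without CRE replicate 3 (-0.96, adjusted p = 0.0505), and the estimate shrank to -0.46 on the log2(FPKM + 1) scale (adjusted p = 0.0383).

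Sequences before the transcription start are shown for Pparg, Cebpa, Cebpb and Plin2, the regulators and the droplet coat gene, as examples of genes that fell (Pparg and Cebpb), did not pass the test (Cebpa) and rose (Plin2). They are the 250 bases before the RefSeq start on GRCm38.p6, on the strand of the gene and read 5′ to 3′. For Pparg the sequence belongs to the last of 3 starts in the table, and the counts do not tell the starts apart. The sequences lie at chr6:115421816-115422065 (Pparg, plus strand), chr7:35119043-35119292 (Cebpa, plus strand), chr2:167688665-167688914 (Cebpb, plus strand) and chr4:86670060-86670309 (Plin2, minus strand). Capitals mark every match, on either strand, to the words searched.
Pparg: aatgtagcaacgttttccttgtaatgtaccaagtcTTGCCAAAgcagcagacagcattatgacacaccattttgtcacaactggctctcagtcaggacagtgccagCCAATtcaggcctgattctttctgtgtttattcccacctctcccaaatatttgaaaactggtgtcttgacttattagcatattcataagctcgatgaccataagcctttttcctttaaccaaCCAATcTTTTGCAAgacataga
Cebpa: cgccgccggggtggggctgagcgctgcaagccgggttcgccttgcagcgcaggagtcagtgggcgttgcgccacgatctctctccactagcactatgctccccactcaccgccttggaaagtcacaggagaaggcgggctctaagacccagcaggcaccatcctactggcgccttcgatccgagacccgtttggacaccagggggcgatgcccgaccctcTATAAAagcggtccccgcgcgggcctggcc
Cebpb: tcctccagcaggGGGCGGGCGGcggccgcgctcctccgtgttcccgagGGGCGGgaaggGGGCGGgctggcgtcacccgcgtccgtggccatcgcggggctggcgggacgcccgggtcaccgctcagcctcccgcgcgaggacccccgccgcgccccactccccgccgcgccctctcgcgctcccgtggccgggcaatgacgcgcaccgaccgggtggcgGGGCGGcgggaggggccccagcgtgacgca
Plin2: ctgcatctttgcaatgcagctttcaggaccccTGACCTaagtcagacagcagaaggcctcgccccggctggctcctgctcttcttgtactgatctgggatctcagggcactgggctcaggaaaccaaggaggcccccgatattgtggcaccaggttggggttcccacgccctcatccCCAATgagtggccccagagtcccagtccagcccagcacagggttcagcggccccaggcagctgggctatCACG

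RefSeq promoters, running from 250 bases before to 50 bases after the start, were matched for 6 of the 10 genes (Pparg, Cebpa, Cebpb, Plin2, Cd36 and Pnpla2), and each word was also counted in all 32851 promoters of the table. Cebpb had 50 CpG dinucleotides in its 300 bases, the highest count of these genes, and 0.715% of all promoters had more. The first Pparg start had 44, the second 13 and the third 2, Cebpa had 29, Pnpla2 18, Plin2 10 and Cd36 3, beside a median of 7 over all promoters. Counts ran from 2 to 50 among the genes that fell and from 10 to 18 among those that rose. The C/EBP word TTGCNNAA, present in 10.8% of all promoters, occurred at 2 places in the third Pparg promoter and in none of the others searched. The nuclear receptor half-site AGGTCA, present in 16.3% of promoters, occurred at the first and the second Pparg start and in Plin2 and Cd36, and a direct repeat of it with 1 base between, present in 0.0396% of promoters, occurred in none of the 6 genes. The hypoxia core ACGTG (19.6% of promoters) was found in Plin2, where overlapping matches on both strands form a word that crosses the start, so that only its first letters are printed. GGGCGG (35.7% of promoters) occurred 5 times in Cebpb, the first 2 overlapping, and also in Plin2, Cd36, Pnpla2 and the first and the second Pparg promoter. TATAAA (13.6%) lay just before the start of Cebpa and the second start of Pparg and just after that of Cebpb. CCAAT (37.4%) was found in Plin2, Cd36 and the second and the third Pparg promoters, while the SMAD box GTCTAGAC (0.213%) and the cyclic AMP word TGACGTCA (1.79%) matched none. A match is a match of letters, and none of these windows was assayed for binding or methylation here.

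Fabp5 and Cd36, which act in fatty acid transport and uptake, fell. Fabp5 (chr3:10012548-10016607, plus strand), an intracellular carrier of fatty acids, was at 29.6, 25.8 and 28.6 CPM in GFP and at 7.09, 6.87 and 7.5 CPM in CRE. The CRE libraries were close to each other and far below the GFP libraries. The mean fell from 28.0 ± 1.99 to 7.15 ± 0.319 CPM, a 3.91-fold lower level (log2 fold change -1.97, SE 0.09, interval -2.16 to -1.77, adjusted p = 2.53e-07). Of all tested genes, 1.64% had a larger absolute log2 fold change. Fabp5 has near-identical copies elsewhere in the genome: 3 other annotated genes match its longest transcript at 96.0 to 99.4% identity over 175 bases. The other of its 2 transcripts was not searched, so the copies may match it over more bases. None of the copies is a row of the table, and how the authors' counting treated reads that fit both is not stated.

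Cd36 (chr5:17781690-17888801, minus strand), the membrane receptor for long-chain fatty acids, was scarce, with 18, 35 and 28 reads in GFP and 5, 3 and 11 in CRE. These are 1.12, 1.97 and 1.45 CPM in GFP and 0.269, 0.166 and 0.581 CPM in CRE. Each CRE library was below each GFP library, and the mean went from 1.52 ± 0.43 to 0.339 ± 0.216 CPM, 22.3% of GFP (-2.13, SE 0.43, interval -3.09 to -1.18, adjusted p = 0.00206). Cd36 entered the test through its GFP counts alone, since at least 10 reads were reached in only 1 of the CRE libraries, and its estimate shrank to -0.43 on the log2(FPKM + 1) scale (adjusted p = 0.0065).

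Cd36 and Fabp5 are also genes of capillary endothelium and macrophages, whose markers were therefore followed, with 25.7% of all tested genes lower and 25.5% higher as the background for each marker list. The endothelial list, 7 of whose 8 genes were lower and none higher, summed to between 360 and 393 CPM in GFP and between 179 and 205 CPM in CRE. Its 2 defining markers Cdh5 (142 ± 10.7 to 80.1 ± 6.93 CPM) and Pecam1 (73.4 ± 5.27 to 39.6 ± 3.12 CPM) were well above 0 in all libraries. Cldn5, among the 7 lower genes, had 19, 19 and 31 reads in GFP and 2, 2 and 7 in CRE. It thus entered the test through its GFP counts alone. The macrophage list, with 3 of 5 tested genes lower of 11 listed, summed to between 58.8 and 66.8 CPM in GFP and between 34.7 and 38.0 CPM in CRE. Most of the sum came from Cd14 and Lyz2, which were lower. Adgre1 was lower as well (3.72 ± 0.475 to 1.55 ± 0.542 CPM, -1.27, SE 0.25, adjusted p = 0.00206). Csf1r (3.46 ± 0.638 and 3.35 ± 0.277 CPM, adjusted p = 0.836) and Cd68 (2.85 ± 0.465 and 2.11 ± 0.606 CPM, adjusted p = 0.178) did not pass. Ptprc, Mrc1, C1qa, C1qb, Tyrobp and Fcgr1 were under 1 CPM in every library. Fibroblast markers moved too, with 7 of 8 lower, among them Tcf21 (36.1 ± 3.07 to 10.4 ± 0.862 CPM) and Col1a1, and a sum between 27600 and 28800 CPM in GFP against 16700 to 18200 CPM in CRE. The part of these cell types in the changes of Cd36 and Fabp5 was not tested, and in bulk RNA fewer cells of a type and less RNA per cell cannot be told apart. The 8 cardiomyocyte markers were each under 1 CPM in every library and summed to between 0.622 and 0.779 CPM in GFP and between 1.16 and 1.44 CPM in CRE.

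The inhibitor of lipoprotein lipase rose, while Lpl itself did not pass the test. Lpl (chr8:68880491-68907448, plus strand) was at 42.6, 42.8 and 45.1 CPM in GFP and at 42.1, 39.2 and 41.2 CPM in CRE. The groups did not overlap but lay side by side, and the change from 43.5 ± 1.4 to 40.8 ± 1.52 CPM did not pass the threshold (-0.09, SE 0.06, adjusted p = 0.189). The interval from -0.21 to 0.03 bounds the drop at 0.21 on the log2 scale, and the sign turned with library size alone (0.07) and in FPKM (0.08 on both log scales used).

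Angptl4 (chr17:33773750-33781830, minus strand), the secreted LPL inhibitor that is also a well-known target of PPARs, hypoxia and glucocorticoids, rose. It was at 63.5, 71.1 and 75.5 CPM in GFP and at 155, 179 and 172 CPM in CRE. The lowest CRE library was above the highest GFP library, and the mean went from 70.1 ± 6.05 to 169 ± 12.3 CPM, a 2.41-fold rise (1.27, SE 0.07, interval 1.10 to 1.43, adjusted p = 7.05e-07). Of all tested genes, 4.81% had a larger absolute log2 fold change. Per transcript length, Angptl4 stood at 2.73 ± 0.322 times the FPKM of Lpl in GFP and at 6.95 ± 0.781 times in CRE, with the lowest CRE ratio at 6.05 and the highest GFP ratio at 3.

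Plin2 and Pnpla2, which act on lipid droplets, rose by smaller amounts. Plin2 (chr4:86648386-86670060, minus strand), the droplet coat protein of cells other than fat cells, was at 96.7, 87.8 and 83.6 CPM in GFP and at 130, 115 and 124 CPM in CRE. The groups did not overlap, and the mean went from 89.4 ± 6.68 to 123 ± 7.36 CPM, 138% of GFP (0.46, SE 0.06, adjusted p = 0.000187). A single annotated copy, Gm12551, matches Plin2 at 96.1% over 259 bases and is no row of the table. Pnpla2 (chr7:141455198-141460743, plus strand), the lipase that starts the breakdown of stored triglyceride, was at 22.5, 19.6 and 20.3 CPM in GFP and at 24.2, 28.4 and 28.0 CPM in CRE. It rose from 20.8 ± 1.51 to 26.9 ± 2.29 CPM, 129% of GFP (0.37, SE 0.08, adjusted p = 0.00428), with the CRE 1 library closest to the GFP libraries. The ratio of Plin2 to Pnpla2 in FPKM was 4.72 ± 0.645 in GFP and 4.93 ± 0.907 in CRE, with overlapping groups. These sizes were common in the table, since 27.1% of tested genes had a larger absolute change than Plin2 and 35.5% a larger one than Pnpla2.

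Compared per transcript length, the order of the genes differed between groups. In GFP the highest FPKM was that of Plin2 (47.2 ± 3.12), followed by Cebpb (35.8 ± 3.89), Angptl4 (29.4 ± 2.57), Cebpd (27.4 ± 1.48) and Fabp5 (26.8 ± 1.89), and from Cebpb to Fabp5 each neighbour overlapped the next over libraries. Lpl (10.8 ± 0.853) and Pnpla2 (10.1 ± 1.09) came next and overlapped. Pparg (1.13 ± 0.457) and Cebpa (0.979 ± 0.167) overlapped as well, and Cd36 (0.535 ± 0.145) was the lowest.

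In CRE the order began with Angptl4 (79.3 ± 6.10) and Plin2 (71.5 ± 3.68), which overlapped. Cebpb (24 ± 2.55) followed, then Pnpla2 (14.7 ± 1.92) and Cebpd (14.3 ± 0.885), which overlapped, Lpl (11.5 ± 0.490) and Fabp5 (7.66 ± 0.336). Cebpa (1.41 ± 0.284), Pparg (0.531 ± 0.198) and Cd36 (0.139 ± 0.0949) closed it. The FPKM of Angptl4 was close to that of Fabp5 in GFP (ratios 0.945, 1.2 and 1.16) and well above it in CRE (ratios 9.60, 11.4 and 10.1). Fabp5 was 2.48 ± 0.0541 times as high as Lpl in GFP and 0.67 ± 0.0512 times as high in CRE.

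**Figure D3:**
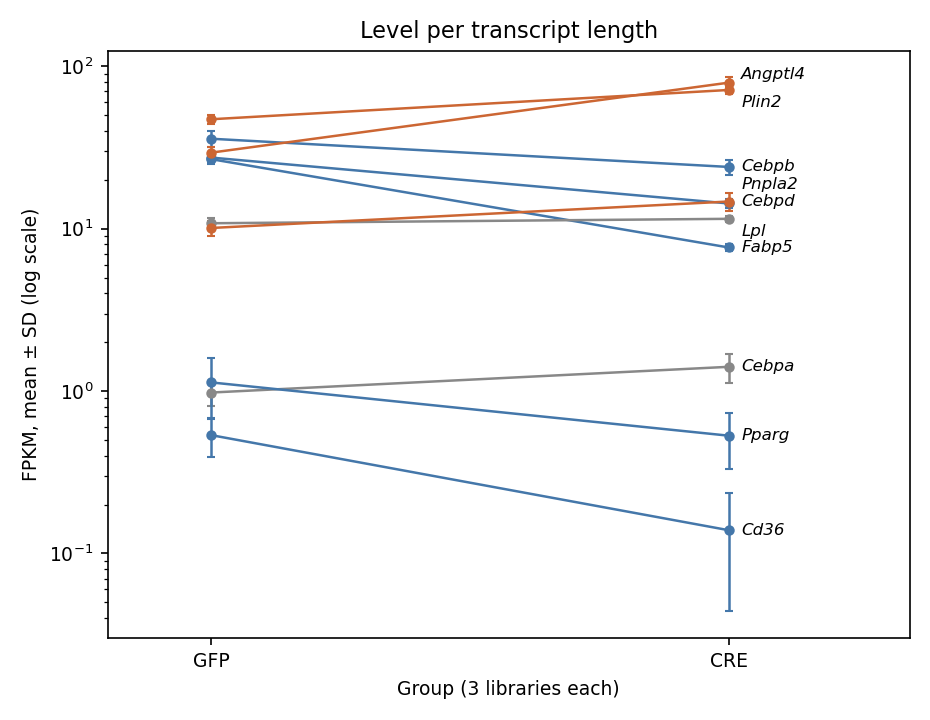
Mean FPKM ± SD (log axis) of each gene in the GFP and CRE groups, 3 libraries each; lines join the means of a gene, coloured by its call in the count test (orange higher, blue lower, grey not past the threshold). The mean of Angptl4 moves above that of Plin2, although their CRE libraries overlap, and Fabp5 drops below Lpl and Pnpla2. Pparg, Cebpa and Cd36 stay near or below 1 FPKM in both groups.

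The wider pathway was read from 9 lists of 129 genes without the 10 described above, of which 102 were tested. Of these, 19 (18.6%) were higher and 39 (38.2%) lower in CRE, with a median log2 fold change of -0.10, beside 25.5% and 25.7% of all tested genes. Higher genes made up 32.8% of the 58 calls, and with library size alone 36 were higher and 26 lower, or 58.1% higher. That scaling raises all genes alike, and the shares over the whole table were 49.8% and 72.6%, above those of the lists in both cases.

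Among the genes listed beside the C/EBP factors, 2 of 3 tested genes rose and none fell, beside 51.2% of all tested genes called in either direction. Ddit3, the stress-induced factor CHOP that forms inactive dimers with C/EBPs, went from 24.6 ± 5.58 to 38.7 ± 2.06 CPM (0.66, SE 0.13, adjusted p = 0.00161). Cebpz, tied to this list by its name alone, rose by less (0.25, SE 0.05). Cebpg was at 52.0 ± 2.64 and 45.6 ± 4.55 CPM and did not pass (adjusted p = 0.0564), though it did without CRE replicate 2 (-0.26, adjusted p = 0.0206), with the replicate number as a block (adjusted p = 0.0367) and with no filter beyond 1 count (adjusted p = 0.0476).

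Of the PPARs, their RXR partners and their cofactors, 2 were higher and 3 lower of 11 tested, with a median of 0.06, and 5 were higher and 1 lower with library size alone. Of all tested genes 51.2% were called in either direction. Rxra, the partner with which PPARγ binds DNA, went from 65.8 ± 0.796 to 50.8 ± 3.21 CPM (-0.37, SE 0.06, adjusted p = 0.0003). In FPKM the difference of Rxra was -0.07 and was not called (adjusted p = 0.293). Ppard, the widely expressed PPAR, was at 32.2 ± 2.06 and 28.3 ± 0.267 CPM (-0.19, adjusted p = 0.0313), a call that was lost with DESeq2, library size alone and FPKM and without GFP replicate 2 or any of the CRE libraries (adjusted p = 0.117 without GFP replicate 2). Ppara was at 0.528 ± 0.324 and 0.685 ± 0.130 CPM (adjusted p = 0.565). The corepressors Ncor1 (0.23) and Nrip1 (0.21) rose and the Mediator subunit Med1 fell (-0.20), although the call of Med1 was lost with library size alone and its sign turned in FPKM (0.09).

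Of the other regulators of adipogenesis, 11 of 17 tested were lower and 3 higher, beside 25.7% and 25.5% of all tested genes, with a median of -0.29 (7 lower and 3 higher with library size alone). Ebf1 (51.2 ± 3.52 to 30.4 ± 0.778 CPM, -0.75) and Zfp521 (49.3 ± 2.25 to 29.9 ± 1.54 CPM, -0.72) are, respectively, an activator and a repressor of the fat lineage, and both fell. Klf15, a glucocorticoid-responsive activator of adipogenic genes, went from 5.70 ± 1.79 to 1.38 ± 0.332 CPM (-2.03, SE 0.28, adjusted p = 0.000184). Gata2, which restrains adipogenesis, was slightly higher (0.31, adjusted p = 0.0375), a call lost without GFP replicate 1 or 3 and without CRE replicate 1 or 3, with the replicate block, with DESeq2 and in FPKM. Klf5, chosen for mention after its values were seen, was at 1.03 ± 0.217 CPM in GFP and 4.92 ± 0.527 CPM in CRE (2.26, SE 0.22, adjusted p = 1.71e-05).

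Markers of mature fat cells were nearly absent. Of 12 listed genes, 5, among them Adipoq, the gene of adiponectin, had no read in any library, and 10 were under 1 CPM throughout. For Adipoq a count of 0 in each library allows up to 3 reads per library, and Plin1, the perilipin of fat cells, had reads in a single library, CRE 3, at 0.106 CPM. The remaining 2 were Pck1 and Fabp4. Pck1, an enzyme of glyceride and glucose synthesis, was at 1.62, 3.89 and 1.4 CPM in GFP and 3.22, 3.93 and 2.69 CPM in CRE, with overlapping groups (0.51, adjusted p = 0.248), and it passed without GFP replicate 2 (1.12, adjusted p = 0.00635). Fabp4 is a carrier of fatty acids in fat cells, macrophages and capillary endothelium. It was at 12.2, 11.3 and 13.2 CPM in GFP and 1.07, 1.16 and 1.90 CPM in CRE. Its level fell from 12.2 ± 0.962 to 1.38 ± 0.454 CPM (-3.14, SE 0.19, adjusted p = 8.54e-07), a larger change than that of any of the 10 genes. The endothelial and macrophage sums given above moved the same way, and their part in the change of Fabp4 was not tested.

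Partners of LPL and lipoprotein receptors included 7 lower and no higher genes of 11 tested, beside 25.7% and 25.5% of all tested genes (3 lower and 2 higher with library size alone). Lipg, the endothelial lipase, went from 8.48 ± 0.454 to 4.10 ± 0.261 CPM (-1.05, SE 0.12). Vldlr, the receptor that works beside LPL on triglyceride-rich particles, went from 52.6 ± 4.94 to 30.5 ± 3.63 CPM (-0.78, SE 0.09). Lrp1, the abundant scavenger receptor of fibroblasts, went from 4150 ± 238 to 2980 ± 102 CPM (-0.48, SE 0.05). Gpihbp1, which holds LPL on capillaries, had 3, 5 and 9 reads in GFP and 0, 0 and 1 in CRE and was not tested. Lipg and Gpihbp1 are expressed by endothelium, whose summed markers fell as given above, and the part of that cell type here was not tested.

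Of the genes for uptake, binding and activation of fatty acids, 8 of 16 tested were lower and 1 was higher, beside the same 25.7% and 25.5% (7 lower and 3 higher with library size alone). The lower genes include Acsl6 and Slc27a6, named after their values were seen, which reached 10 reads in no more than 1 of the CRE libraries and so entered the test through GFP. Fabp7, also lower and named after its values were seen, had 11, 10 and 9 reads in CRE and relied on GFP as well. Where 10 reads were required in every library, 36 and not 39 genes of all lists were lower. The higher one was Slc27a4, a fatty acid transporter that activates its substrate (58.9 ± 3.31 to 82.7 ± 3.26 CPM, 0.49, SE 0.06). Cav1, the caveolar protein involved in lipid uptake that endothelium also expresses (45.7 ± 1.15 to 23.9 ± 2.42 CPM, -0.93), Dbi, the acyl-CoA binding protein (55.5 ± 4.49 to 37.4 ± 1.58 CPM, -0.57), and Slc27a1 (8.71 ± 0.249 to 6.14 ± 0.955 CPM, -0.50) fell. The call of Slc27a1 was lost in FPKM (adjusted p = 0.419).

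Around PNPLA2, its inhibitor fell and its activator did not pass the test. G0s2, which binds and blocks PNPLA2, was at 6.47, 4 and 5.25 CPM in GFP and at 2.26, 1.88 and 2.75 CPM in CRE, without overlap (-1.18, SE 0.22, adjusted p = 0.00128). Abhd5, the coactivator of PNPLA2, was at 64.9 ± 0.217 and 66.6 ± 1.94 CPM (0.04, SE 0.05, adjusted p = 0.533), but was called higher with library size alone (0.20, adjusted p = 0.00333) and in FPKM. The hormone-sensitive lipase Lipe was at 6.58 ± 0.394 and 5.53 ± 1.10 CPM (adjusted p = 0.204), and Mgll, which completes lipolysis, fell (8.10 ± 1.29 to 4.76 ± 0.833 CPM, -0.76). Fitm2, needed for droplet budding, rose (25.5 ± 1.5 to 34.3 ± 0.687 CPM, 0.43), and Bscl2, which organises droplets at the endoplasmic reticulum, fell (-0.26), a call lost with library size alone (adjusted p = 0.328), in FPKM and without GFP replicate 3 or CRE replicate 1 (adjusted p = 0.0822 and 0.0755). Plin3 (41.9 ± 1.86 and 43.6 ± 2.38 CPM, adjusted p = 0.438) and Hilpda (5.19 ± 0.184 and 4.8 ± 0.756 CPM, adjusted p = 0.555), 2 further droplet proteins, did not pass, although Plin3 was called higher with library size alone (0.22, adjusted p = 0.00873) and in FPKM. In all, 1 of 8 tested genes of this list was higher and 3 were lower, against 3 and 2 with library size alone, and 51.2% of all tested genes were called in either direction.

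Of the triglyceride synthesis genes, 3 were higher and 3 lower of 14 tested (21.4% each), near the 25.5% and 25.7% of all tested genes, with a median of -0.02 (5 higher, 3 lower and 0.14 with library size alone). For the first acylation step, Gpam, the mitochondrial enzyme, fell from 108 ± 13.8 to 73.1 ± 3.78 CPM (-0.57), while the enzymes of the endoplasmic reticulum Gpat3 (7.23 ± 0.840 to 10.8 ± 0.681 CPM, 0.58) and Gpat4 (0.21) rose. For the phosphatidate phosphatases, Lpin2 rose (0.25) and Lpin3 fell (22 ± 0.624 to 13.1 ± 0.531 CPM, -0.75). Agpat4 fell (-0.54).

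Of the fatty acid oxidation genes, 7 of 20 tested (35%) were higher and 3 (15%) lower, beside 25.5% and 25.7% of all tested genes, and 13 were higher and 2 lower with library size alone. Pdk4, which spares glucose when fatty acids are burnt and is a classical PPAR target, went from 8.95 ± 0.527 to 27.1 ± 1.07 CPM (1.60, SE 0.08, adjusted p = 4.21e-07). Cpt1a, which admits long-chain fatty acids to mitochondria (113 ± 2.91 to 143 ± 3.87 CPM, 0.34), Hadhb (0.48) and Acadvl (0.39) rose by less. Echs1, the enoyl-CoA hydratase of the same cycle, fell from 55.8 ± 1.45 to 29.3 ± 1.19 CPM (-0.93, SE 0.06), and Acot2 fell (-1.04). Eci1 was lower (-0.25, adjusted p = 0.0341), but not when library size alone, DESeq2 or FPKM was used, or without GFP replicate 3 or any of the CRE libraries.

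**Figure D4:**
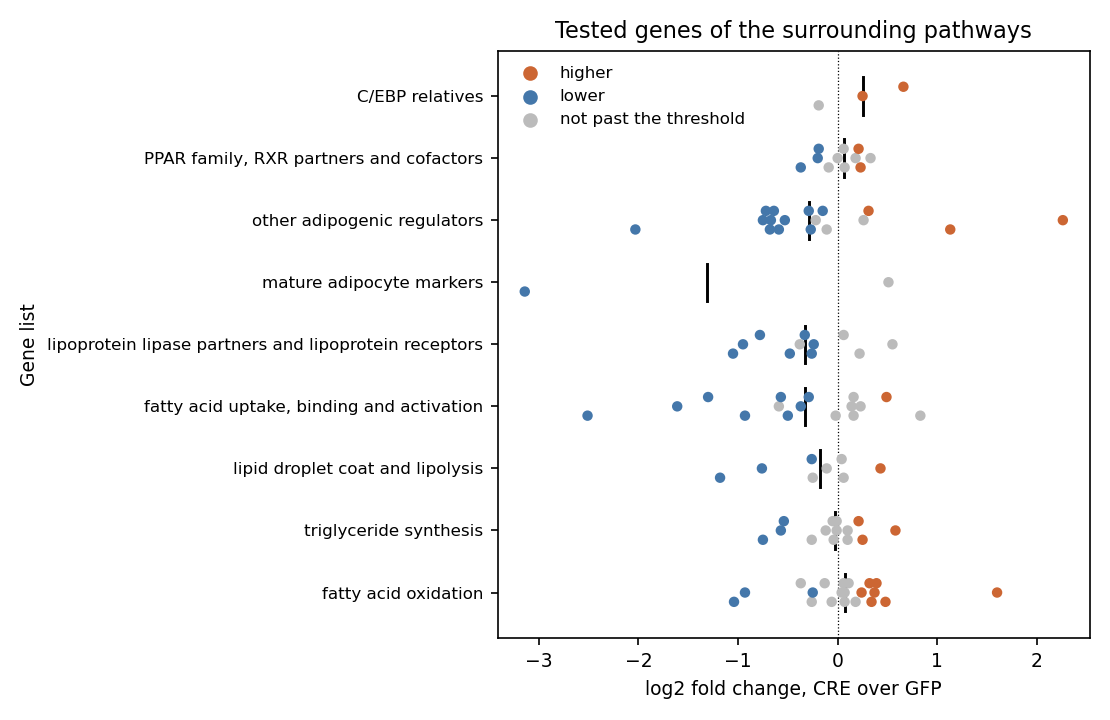
Log2 fold change of CRE over GFP for each of the 102 tested genes in the 9 lists around the 10 genes; black bars are list medians and colours give the call. Points of the lipoprotein and uptake lists lie mostly left of 0, those of fatty acid oxidation on both sides, with Fabp4 at -3.14 and Klf5 at 2.26 as the ends.

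**Figure D5:**
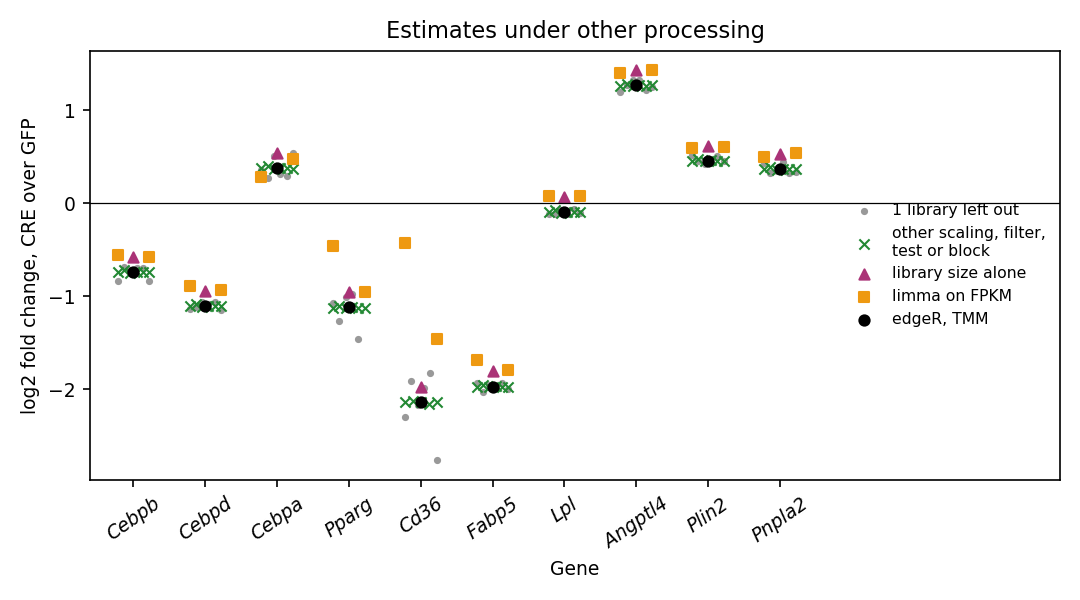
Log2 fold change of each gene under every alternative tried, with the edgeR estimate in black; grey points leave out 1 library, and squares are limma on FPKM. Lpl is the gene whose sign changes, and Pparg and Cd36 spread most.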

How the data were processed

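RNA-seq was performed on 6 libraries, 3 per group, and the titles of the samples gave each library's group and number. The methods state that Trimmomatic was used for trimming, HISAT2 for alignment to GRCm38 and HTSeq-count for counting. Versions and the strand setting are not given in the sources used here, and the labels and the methods name different extraction and library kits. The authors deposited raw counts and, beside them, FPKM values from Cufflinks, which alone were used to compare levels between genes. Their own fold changes and p-values in the same table were not used.

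The test was that of edgeR 4.0.16 in R 4.3.3 (filterByExpr with a minimum count of 10 and a minimum total of 15, TMM scaling, two-sided quasi-likelihood test, Benjamini-Hochberg adjustment, threshold 0.05). TMM factors were 0.944 to 0.947 in GFP and 1.05 to 1.06 in CRE. The script was tested on simulated data. Each standard error was derived from the estimate and its F value. With 3 libraries against 3, an exact permutation test cannot give a p under 0.1. Counts of 0 were taken to allow up to 3 reads, and intervals and such limits cover counting error or the spread between these libraries only. No library was left out of the main test. Replicates differed by more than sampling noise. GFP 1 differed most from its group, with a chi-square per degree of freedom of 12.1 and 9.38, against 4.05 between GFP 2 and GFP 3. Alternatives were RLE, upper-quartile and library-size scaling, other filters, DESeq2 1.42.0, limma 3.58.1 on log2(FPKM + 1) and log2(FPKM + 0.1), the replicate block, each library left out and the study's threshold.

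Coordinates and transcripts came from GENCODE M21 (GRCm38) and promoters from RefSeq (GRCm38.p6). Copies came from a search with the longest transcript of each gene at 95% identity over at least 150 bases. The 10 genes and the lists were chosen with earlier results of these data known. Of each list, the text names the genes with the 3 largest changes in each direction among those past the threshold with a mean of at least 5 CPM in one group, and a few named whatever their values. For Ddit3, which has 2 rows in the table, the row with most reads was used.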

Additional observations from a re-analysis of the deposited data

How the results depend on the processing

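Of the 10 genes, Angptl4, Plin2, Pnpla2, Cebpb, Cebpd, Fabp5 and Cd36 kept their direction and their call at an adjusted p under 0.05 under every scaling, filter, test and left-out library that tested them. Cd36 could not be tested where at least 10 reads were required in every library, and its estimates ran from -2.76 to -1.82 over the left-out libraries. Pparg kept its direction and lost its call without GFP replicate 3, CRE replicate 1 or CRE replicate 3, with estimates between -1.46 and -0.96 over the left-out libraries and of -0.46 on log2(FPKM + 1). Lpl, which was never called, turned from -0.09 to 0.070 with library size alone, 0.078 on log2(FPKM + 1) and 0.084 on log2(FPKM + 0.1), and Cebpa passed with library size alone. Leaving out 1 library in turn gave 3 higher and 4 to 5 lower of the 10 genes, and 17 to 20 higher and 32 to 41 lower pathway genes. Under the study's threshold of an unadjusted p under 0.05 with a fold over 1.5 or under 0.66, 1 of the 10 genes was higher (Plin2 and Pnpla2 fell short of the fold) and 5 were lower, and 4 pathway genes were higher and 19 lower. Pathway genes numbered 36 higher with library size alone, 35 higher and 24 lower on log2(FPKM + 1), and 35 higher and 23 lower on log2(FPKM + 0.1), against 19 higher and 39 lower. Library size alone and FPKM lack the TMM factors, which differ between the groups. Deviations of same-numbered libraries correlated at 0.046, 0.18 and -0.0181, and those of differently numbered ones at -0.116 to 0.0713. Not every library correlated best with its own number. With 3 libraries per group, such correlations cannot show whether same-numbered libraries shared an origin. The replicate block gave 3 higher and 5 lower of the 10 genes. The low counts of Pparg, Cebpa and Cd36, under 100 in every library, limit what could be seen for them.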
